A study of Mus musculus with 9 samples.

Results

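The step from 1 to no functional Prm2 allele was described here, that is, testes of Prm2-/- males against testes of Prm2+/- males. The comparison holds 6 of the 9 libraries of the series, 3 of each genotype, chosen by the genotype label, and all entries of the gene table with a mean of at least 10 normalized counts over these 6 libraries, which were 14200 of 38685. The males were C57BL/6 and carried Prm2 alleles that had been edited with CRISPR/Cas9 in oocytes. The animals' age and the position of the edit within Prm2 are not given in the sources used here. The study counts the 3 libraries of a genotype as biological replicates. The remaining 3 libraries were from Prm2+/+ testis and entered only alternative fits, which are named where given. The main test and its calls did not use them, so their values could be set beside each gene that differed.

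Protamines are small, arginine-rich proteins that replace the histones of the spermatid nucleus, by way of the transition proteins, and pack sperm DNA into a dense form. The mouse uses PRM1 together with PRM2, which is made as a precursor and cleaved after it has bound DNA. Protamine mRNA is transcribed in round spermatids, stored with RNA-binding proteins such as YBX2, and translated later in elongating spermatids, when transcription has largely ceased.

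RNA was taken from testis without the tunica albuginea and sequenced with QuantSeq, a method that starts from the poly(A) tail and yields tags of the 3′ part of an mRNA. The values are normalized counts, that is, the counts of a gene in a library divided by 1 size factor per library. Recovered totals lay between 3768587 and 4490411 counts in the 6 libraries. Differences are given as the log2 fold change (LFC) of the normalized count plus 1, Prm2-/- minus Prm2+/-, from limma on the 6 libraries, and a gene was called when its Benjamini-Hochberg adjusted p was below 0.05 and its LFC lay beyond 0.5 in either direction. In whole testis, fewer cells of a type and less RNA per cell cannot be told apart.

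The targeted gene itself was not lower in the libraries labelled Prm2-/-. Prm2 (ENSMUSG00000038015; GRCm38 chromosome 16, 10791380 to 10796134, minus strand) had 34660.3, 36004 and 42766 normalized counts in the 3 Prm2-/- libraries and 30174, 31011 and 34487 in the 3 Prm2+/- libraries. Each Prm2-/- library was thus above each Prm2+/- library. The LFC was 0.24 (SE 0.09, 95% interval 0.02 to 0.47), and the gene was not called (limma, adjusted p = 0.641). A 3′ tag can lie outside an edited stretch, so this level does not check the labels, and genotypes are those of the libraries as labelled.

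The other genes of sperm chromatin packaging stayed close to their heterozygous level. Of the 8 genes on this list, 7 were tested, and Hist1h1t, a testis linker histone, fell below the count minimum. All 7, Prm2 among them, had a 95% interval of the LFC inside -0.5 to 0.5, against 34.5% of all tested genes. Prm1, Prm2, Prm3, Tnp1 and Tnp2 lay far above the median level of the tested genes (73.2 normalized counts), so this share is not matched for level. None (0) was called by limma, edgeR or DESeq2, and 2, Prm2 and Prm3, had an unadjusted p under 0.05, against 7.54% of all tested genes.

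Prm1, the other protamine, had 99038, 104509 and 99700.1 normalized counts in Prm2-/- and 98168, 106830 and 105593 in Prm2+/-, with an LFC of -0.03 (95% interval -0.13 to 0.06). Tnp1, transition protein 1, had 62524, 65316 and 65668 in Prm2-/- and 65183, 69002 and 70894 in Prm2+/-, with an LFC of -0.08 (95% interval -0.18 to 0.01). For both genes the libraries of the 2 genotypes overlapped. The LFC was -0.03 for Tnp2 (95% interval -0.11 to 0.05), -0.14 for Prm3 (95% interval -0.25 to -0.02) and 0.12 for Hils1, a spermatid linker histone (95% interval -0.02 to 0.26). H1fnt, another linker histone of spermatids, had an LFC of -0.04 (95% interval -0.30 to 0.23).

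**Figure D1:**
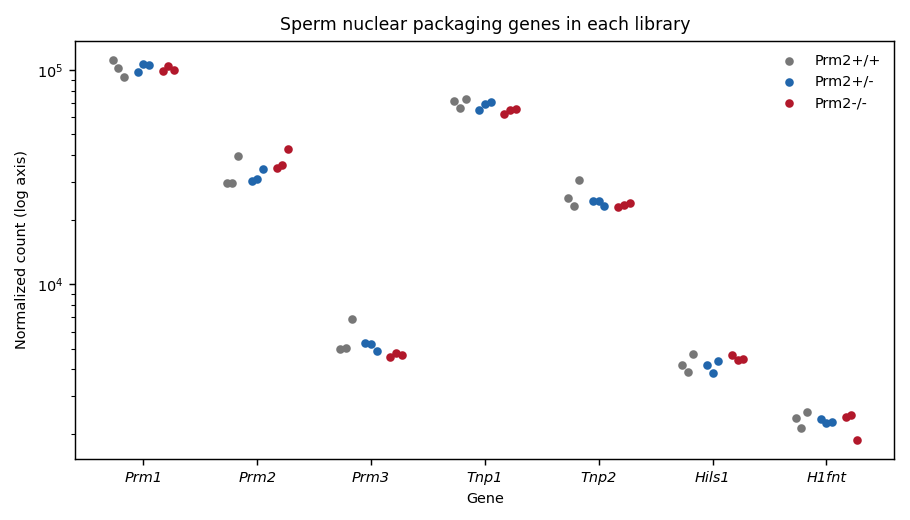
Normalized counts (log axis) of the 7 tested sperm nuclear packaging genes, with each point 1 library and colours for the genotypes (3 libraries each). The Prm2-/- libraries lie above the Prm2+/- libraries for Prm2 (34660.3 to 42766 against 30174 to 34487), and the LFC of all 7 genes lies between -0.14 and 0.24.

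Over all 14200 tested genes, 45 (0.317%) were higher and 7 (0.0493%) were lower in Prm2-/- than in Prm2+/-, 52 (0.366%) in all. Of these, 51 were protein coding. The fold changes were mostly large: the ratio of the higher to the lower mean ran from 1.71 to 34.7 among the 45, leaving aside genes listed at 0 throughout 1 genotype. The median LFC of all tested genes was -0.01, with a 5th percentile of -0.56 and a 95th percentile of 1.03. An unadjusted p under 0.05 was found for 1070 genes (7.54%). Mea1 was the only gene with an adjusted p under 0.05 whose LFC stayed within the limit (0.35, limma, adjusted p = 0.0427).

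The number of calls depended on the fit. With the Prm2+/+ libraries added to the fit, 21 genes were higher and 4 lower, while DESeq2 on the recovered counts of the same 6 libraries called 128 higher and 27 lower, among them all 52. When 1 library was left out at a time, the higher genes numbered 38 to 90 and the lower genes 11 to 20, and the highest of these came without Prm2+/- replicate 1 and without Prm2-/- replicate 3. Of the 52 genes, 28 were called with each of the 6 libraries left out in turn, and 43 were called by edgeR. Among the 20 largest rises, 11 were called with each library left out in turn, and Gucy2e, Nprl3, 1300017J02Rik, Mfap3l, Haghl, Ascc1, Rpap1, Gpr160 and Mrps23 were not.

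**Figure D2:**
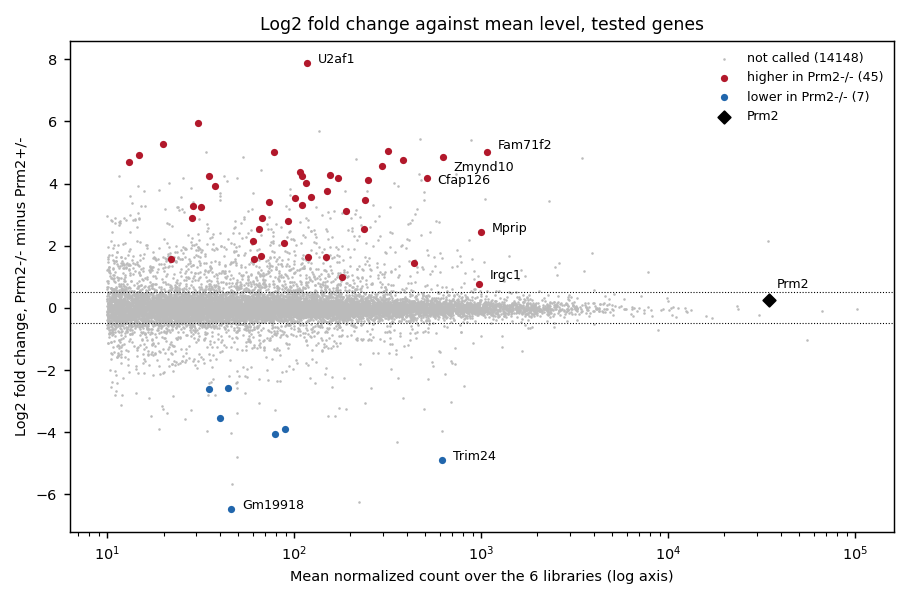
LFC of each tested gene (Prm2-/- minus Prm2+/-) against its mean normalized count over the 6 libraries (log axis), with dotted lines at -0.5 and 0.5. The 45 higher genes (red) reach an LFC of 7.88 and the 7 lower genes (blue) reach -6.48, both in genes listed at 0 in 1 genotype, while Prm2 (black) sits at 0.24.

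Many of the called genes had a high level in 1 genotype and a low level in the other, with no overlap between the 2 genotypes. A gene was counted as all-or-none when the lowest library of the higher genotype was at least 8 times the highest library of the lower genotype, with a 0 set to 3 counts. This held for 18 of the 45 higher genes and 5 of the 7 lower genes, and for 26 (0.183%) of all tested genes. In all 52 the libraries of the 2 genotypes did not overlap, which was so for 14.9% of the tested genes. The calls were made on these same values, so neither count is independent of the selection, and the lack of overlap largely follows from it. All 52 were entries that StringTie had assembled from the reads, as were 96.8% of the tested genes, and the part of this assembly in the high and low levels was not tested. The fold changes below are those of the deposited values.

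Such jumps were also seen between libraries of 1 genotype. The highest library was at least 8 times the lowest for 497 (3.50%) of the tested genes within Prm2-/-, 646 (4.55%) within Prm2+/- and 914 (6.44%) within Prm2+/+. A further 89 genes had an LFC beyond 3 in either direction without being called, and in 70 of them the libraries of at least 1 of the 2 genotypes differed by 8 times or more.

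The Prm2+/+ libraries, which none of the 52 calls used, showed which of the called genes stood apart in Prm2-/- alone. By distance on the log2 scale, all 3 Prm2+/+ libraries lay on the Prm2+/- side for 20 of the 52 genes, all 3 lay on the Prm2-/- side for 6, and for 26 they were divided. Among the 26, replicate 3 of Prm2+/+ stood alone in 14, replicate 1 in 7 and replicate 2 in 5. These counts are a description and were not tested.

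**Figure D3:**
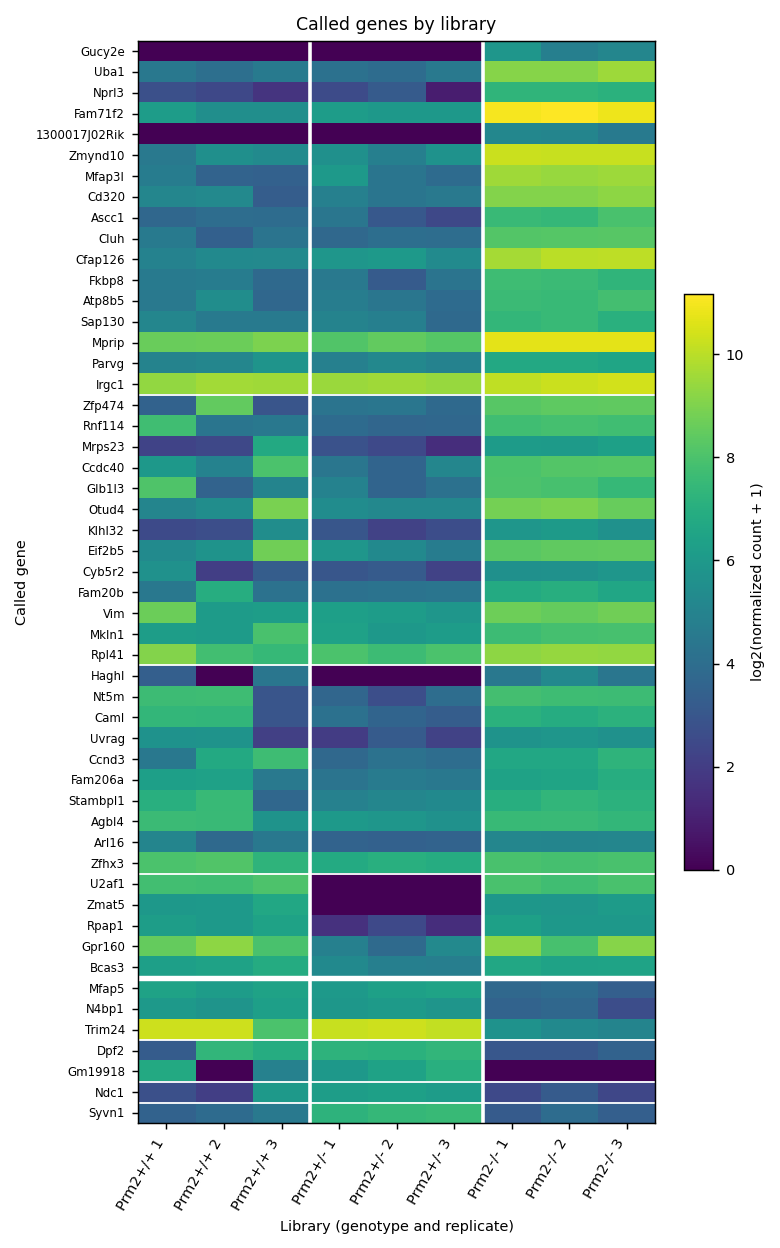
Heat map of log2(normalized count + 1) for the 52 called genes (rows) in all 9 libraries (columns), with the 45 higher genes above the thick line and, within each direction, blocks by how many Prm2+/+ libraries lie nearer to Prm2-/- (0 at the top, then 1, 2 and 3). In the top block of 17 genes both other genotypes lie below Prm2-/-, and in the block of 5 that ends with Bcas3 only Prm2+/- is low.

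Of the 45 higher genes, 17 had all 3 Prm2+/+ libraries on the Prm2+/- side. Fam71f2 (ENSMUSG00000079652; chromosome 6, 29279593 to 29290680, plus strand) belongs to a family whose proteins bind the Golgi GTPase Rab2. It had 2056, 2287 and 1886 normalized counts in Prm2-/-, 71.2, 60.3 and 60.1 in Prm2+/-, and 71.3, 45.0 and 45.3 in Prm2+/+. The genotypes Prm2+/- and Prm2+/+ thus shared a low level, and the mean of Prm2-/- was 32.5-fold that of Prm2+/- (95% interval of the LFC 4.73 to 5.28, limma, adjusted p = 0.000129).

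A pair of genes of cilium assembly rose in the same way. Zmynd10 (ENSMUSG00000010044; chromosome 9, 107547298 to 107551319, plus strand) encodes a cytoplasmic factor for the assembly of dynein arms. It had 1246, 1187 and 1182 normalized counts in Prm2-/- and 47.5, 27.4 and 50.4 in Prm2+/-. The Prm2+/+ libraries were low as well, with 21.9, 46.1 and 39.8, and the LFC was 4.87 (SE 0.23, limma, adjusted p = 0.00103).

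Cfap126 (ENSMUSG00000026649; chromosome 1, 171113918 to 171126967, plus strand) encodes Flattop, which takes part in the positioning of basal bodies. Its values were 811, 1021 and 1073 normalized counts in Prm2-/- and 57.3, 63.0 and 39.8 in Prm2+/-. With 29.5, 38.6 and 37.6 in Prm2+/+, the gene was high in the 3 Prm2-/- libraries only (LFC 4.17, SE 0.20, limma, adjusted p = 0.00105). Fam71f2, Zmynd10 and Cfap126 were called with each library left out in turn.

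The upstream sequences of Prm2 and of these 3 genes are shown, since Prm2 is the edited gene and the other 3 rose together from a like low level. They run 5′ to 3′ on the strand of the gene up to the RefSeq start site, at most 250 bases, and end earlier where an annotated exon begins (RefSeq, GRCm38.p6). Capitals mark the letters CCAAT and TATAAA on either strand, and the letters TGACGTCA, the full cAMP response element to which CREM binds, were searched in the same way.
Prm2 (chr16:10792106-10792355, minus strand): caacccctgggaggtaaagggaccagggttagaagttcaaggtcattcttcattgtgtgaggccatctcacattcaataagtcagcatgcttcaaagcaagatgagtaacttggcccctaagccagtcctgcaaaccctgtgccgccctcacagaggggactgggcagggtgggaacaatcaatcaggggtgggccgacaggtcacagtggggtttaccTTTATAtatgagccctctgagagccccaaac
Fam71f2 (chr6:29280891-29281140, plus strand): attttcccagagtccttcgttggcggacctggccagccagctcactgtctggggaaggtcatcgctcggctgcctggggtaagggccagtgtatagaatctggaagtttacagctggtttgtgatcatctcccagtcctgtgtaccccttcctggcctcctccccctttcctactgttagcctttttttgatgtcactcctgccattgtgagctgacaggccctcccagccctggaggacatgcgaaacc
Zmynd10 (chr9:107547054-107547297, plus strand): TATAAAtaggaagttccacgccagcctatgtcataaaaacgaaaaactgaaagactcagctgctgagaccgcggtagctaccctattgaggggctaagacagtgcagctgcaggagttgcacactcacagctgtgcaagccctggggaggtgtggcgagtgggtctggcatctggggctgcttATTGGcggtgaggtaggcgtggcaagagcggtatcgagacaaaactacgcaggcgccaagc
Cfap126 (chr1:171113736-171113917, plus strand): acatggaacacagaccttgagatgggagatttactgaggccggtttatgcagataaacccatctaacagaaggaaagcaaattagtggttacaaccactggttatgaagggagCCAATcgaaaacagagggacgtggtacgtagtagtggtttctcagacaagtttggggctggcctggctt
TATAAA was found in the sequences of Prm2 and Zmynd10 and CCAAT in those of Zmynd10 and Cfap126. The Fam71f2 sequence held neither, and TGACGTCA was in none of the 4. The windows of Prm2 and Fam71f2 lie inside an intron of a longer annotated transcript of the same gene. Of the 52 called genes, 45 had an entry in the promoter table, and 0 of these held TGACGTCA in the 250 upstream bases, 16 CCAAT and 3 TATAAA. Among 27025 genes with such a window the shares were 1.60%, 34.3% and 12.9%. A match is a description of the letters and not a binding site.

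Others of these 17 genes have roles in most cell types. Uba1, the ubiquitin-activating enzyme on the X chromosome, had 559.7, 559 and 737 normalized counts in Prm2-/- against 16.8, 14.6 and 22.1 in Prm2+/- (LFC 5.05, limma, adjusted p = 0.000396). Cd320, the receptor for transcobalamin, had 537, 541 and 617 against 27.7, 19.2 and 22.1 (LFC 4.57, limma, adjusted p = 0.000318). In neither gene did a Prm2+/+ library exceed 37.5 normalized counts.

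Cluh, which binds mRNAs for mitochondrial proteins, had 289, 294 and 305 normalized counts in Prm2-/- against 12.9, 15.5 and 15 in Prm2+/- (LFC 4.27, limma, adjusted p = 0.000144). Mprip, a partner of myosin phosphatase, changed between 2 higher levels, with 1669, 1678 and 1677 against 283, 351 and 299.5 (LFC 2.43, limma, adjusted p = 0.000396). Its Prm2+/+ libraries had 387, 399.7 and 493. Irgc1, an immunity-related GTPase of germ cells, had the smallest change of all called genes, with 1104, 1248 and 1340.0 against 718, 759 and 687 (LFC 0.77, limma, adjusted p = 0.0427). It was called in 1 of the 6 fits with a library left out (limma, adjusted p up to 0.157) and not with the Prm2+/+ libraries in the fit (limma, adjusted p = 0.0567).

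Gucy2e, a guanylate cyclase known from photoreceptors, and 1300017J02Rik were listed at 0 in all 6 libraries of Prm2+/- and Prm2+/+. The Prm2-/- libraries held 58.0, 27.4 and 33.8 normalized counts of Gucy2e and 34.4, 32.5 and 22.2 of 1300017J02Rik. Both calls were lost in some of the fits with 1 library left out (limma, adjusted p up to 0.107 and 0.159).

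Mfap3l, Nprl3 and Ascc1 also had low Prm2+/- and Prm2+/+ levels. Mfap3l had 749.8, 701 and 746 normalized counts in Prm2-/- and 62.3, 19.2 and 14.1 in Prm2+/- (LFC 4.77, limma, adjusted p = 0.0322). Nprl3, a subunit of the GATOR1 complex, which restrains mTORC1, had 157, 155 and 139 against 4.94, 8.22 and 0.884 (LFC 5.01, limma, adjusted p = 0.0406). Of these, Mfap3l stayed called in 1 and Nprl3 in 2 of the 6 fits with a library left out, and the adjusted p was highest without Prm2-/- replicate 1 in both (limma, 0.139 and 0.157).

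A second set of higher genes was low in Prm2+/- alone. For U2af1, Zmat5, Rpap1, Gpr160 and Bcas3 all 3 Prm2+/+ libraries lay with Prm2-/-. U2af1, the splicing factor that reads the end of introns (ENSMUSG00000061613; chromosome 17, 31647081 to 31658892, minus strand), had 245, 211 and 249 normalized counts in Prm2-/- and 221, 215 and 263 in Prm2+/+. It was listed at 0 in each of the 3 Prm2+/- libraries (limma, adjusted p = 0.000144). Every cell uses this factor, so a listed 0 is not taken here as a measured absence, and no fold is given against it or against the other listed zeros.

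Zmat5, a protein of the minor spliceosome, had 58.9, 56.8 and 68.6 normalized counts in Prm2-/-, 60.8, 65.4 and 103 in Prm2+/+ and was listed at 0 in each Prm2+/- library (limma, adjusted p = 0.00166). Rpap1, a partner of RNA polymerase II, had 80.6, 60.9 and 61.2 in Prm2-/- against 1.98, 4.57 and 1.77 in Prm2+/-, with 73.2, 65.4 and 85.1 in Prm2+/+ (LFC 4.25, limma, adjusted p = 0.00914). Gpr160, an orphan receptor, varied more, with 600.4, 236 and 567 in Prm2-/-, 27.7, 13.7 and 37.1 in Prm2+/- and 363, 605 and 244 in Prm2+/+ (LFC 4.10, limma, adjusted p = 0.0461). Bcas3 had an LFC of 1.56, and both Gpr160 and Bcas3 were called in 1 of the 6 fits with a library left out.

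In the remaining 23 higher genes the Prm2+/+ libraries took both levels. Caml, a membrane receptor for tail-anchored proteins, had 137, 121 and 144 normalized counts in Prm2-/- and 16.8, 11.0 and 8.84 in Prm2+/-, while Prm2+/+ had 169, 161 and 6.63. Vim, the intermediate filament protein of Sertoli and other somatic cells, had 413, 368 and 428 in Prm2-/- and 78.1, 71.2 and 56.6 in Prm2+/-, while Prm2+/+ had 401, 69.7 and 72.9. In both, single Prm2+/+ libraries sat at the level of either genotype.

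Rnf114, a ubiquitin ligase, had 213, 229 and 214 normalized counts in Prm2-/-, 13.8, 11.9 and 12.4 in Prm2+/- and 213, 19.3 and 21.0 in Prm2+/+. Otud4, a deubiquitinase, had 449, 498 and 375 in Prm2-/-, 42.5, 36.5 and 36.2 in Prm2+/- and 32.3, 43.9 and 485 in Prm2+/+. The LFC was 4.01 for Rnf114 and 3.48 for Otud4 (limma, adjusted p = 0.00016 and 0.000474). Zfp474 (LFC 4.18), Mrps23, a mitochondrial ribosomal protein (LFC 3.93), Ccdc40, an axonemal protein outside the flagellum list (LFC 3.78), and Rpl41 of the cytosolic ribosome (LFC 1.44) were likewise divided in Prm2+/+. Rpl41 has near-identical copies in the genome, and whether its reads were split between them was not tested. None of the 23 was called when the Prm2+/+ libraries were included in the fit. Divided Prm2+/+ values widen the spread that this fit shares over the genotypes, so the loss largely follows from the grouping.

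**Figure D4:**
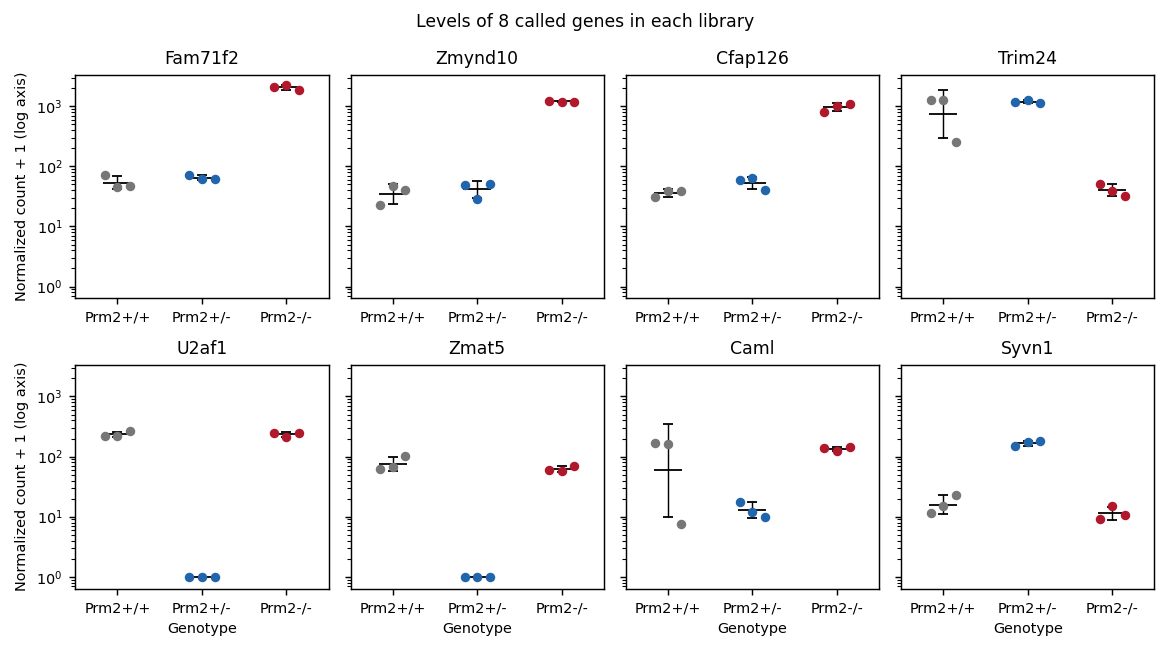
Normalized count + 1 (log axis) of 8 called genes in each library, with points for libraries and bars for the mean ± SD of 3 libraries on the log2 scale. Fam71f2, Zmynd10 and Cfap126 are high in Prm2-/- only, U2af1 and Zmat5 are listed at 0 in Prm2+/- only, Caml has Prm2+/+ libraries at both levels, Trim24 is low in Prm2-/- and Syvn1 is high in Prm2+/- only.

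Of the 7 lower genes, Trim24 was the most abundant. Trim24 (ENSMUSG00000029833; chromosome 6, 37870811 to 37966296, plus strand) encodes a transcriptional cofactor of the TIF1 family. It had 50.7, 38.6 and 31.7 normalized counts in Prm2-/- and 1191, 1275 and 1139 in Prm2+/-. In Prm2+/+ it had 1287, 1249.5 and 256, so that replicate 3 lay between the other levels. The LFC was -4.89 (SE 0.18, limma, adjusted p = 0.000376), a 29.8-fold difference of the means.

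Mfap5, a microfibril protein of the extracellular matrix, and N4bp1 were also low in Prm2-/- alone. Mfap5 had 12.7, 14.2 and 9.50 normalized counts in Prm2-/-, 62.3, 80.4 and 87.5 in Prm2+/- and 84.6, 71.8 and 84.0 in Prm2+/+ (LFC -2.57, limma, adjusted p = 0.011). N4bp1 had 10.9, 12.2 and 5.28 in Prm2-/- and 59.3, 65.8 and 55.7 in Prm2+/- (LFC -2.62, limma, adjusted p = 0.046), and it was called in 1 of the 6 fits with a library left out. The other 6 lower genes were called in each of these fits.

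Syvn1, a ubiquitin ligase of the endoplasmic reticulum, was high in Prm2+/- alone, with 149, 172 and 180.3 normalized counts, against 8.15, 14.2 and 9.50 in Prm2-/- and 10.5, 13.9 and 22.1 in Prm2+/+ (LFC -3.88, limma, adjusted p = 0.00196). Dpf2, a subunit of BAF chromatin remodelling complexes, had 7.24, 7.10 and 10.6 in Prm2-/- and 148, 139.8 and 163 in Prm2+/- (LFC -4.04). Ndc1, a membrane protein of the nuclear pore, had 4.53, 8.12 and 4.22 in Prm2-/- and 72.2, 79.5 and 71.6 in Prm2+/- (LFC -3.55). Dpf2 and Ndc1 were divided in Prm2+/+, with 8.55, 162 and 118 for Dpf2 and 5.70, 3.21 and 61.9 for Ndc1.

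Gm19918 was listed at 0 in the 3 Prm2-/- libraries and had 61.3, 85.9 and 129.9 normalized counts in Prm2+/-. It lies on the opposite strand within the higher gene Fam20b, a kinase of proteoglycan synthesis, which had 113, 126 and 97.1 normalized counts in Prm2-/- and 16.8, 18.3 and 19.4 in Prm2+/-. The sum of the pair was 113, 126 and 97.1 in Prm2-/- and 78.1, 104 and 149 in Prm2+/-, so that the summed libraries overlapped (LFC 0.06, limma, adjusted p = 0.959). The strand setting of the counting is not given in the sources used here.

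Another gene of the table overlapped 20 of the 52 called genes (38.5%) and 37.5% of the tested genes. When overlapping genes were summed before the test, 10 of these 20 genes lay in loci that were no longer called. Fam20b and Gm19918, which share 1 locus, are among the 10. Nt5m, a mitochondrial nucleotidase, had 223, 206 and 201 normalized counts in Prm2-/- and 11.9, 5.48 and 15 in Prm2+/-, while its locus with Cops3 was not called (LFC -0.04, limma, adjusted p = 0.985). The locus of Ascc1 and Anapc16 had an adjusted p of 0.467 (limma), that of Ccnd3 and Bysl of 0.159, that of Fkbp8 and Kxd1 of 0.762 and that of Haghl and Narfl of 0.698.

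By position, chromosome 11 held 10 of the 52 called genes among 1072 tested (0.933%, against 0.366% of all tested genes). Chromosomes 4 and 8 held 5 each. Chromosomes 5, 12 and 14, with 1022, 516 and 589 tested genes, held 0 of the 52 genes called by limma, as did Y and the mitochondrial genome. The distribution was not tested. Within 1 Mb of Prm2, 21 genes were tested and 0 were called by limma, edgeR or DESeq2. Of the 21, 4 had an unadjusted p under 0.05, against 7.54% of all tested genes. The nearest called gene on chromosome 16, Eif2b5, lies 9702683 bp away.

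By function, called genes fell into 2 of the 11 lists. The lists were chosen with earlier results of these data known, so the shares of called members are not independent of those results. Of 52 tested genes of the flagellum and axoneme, 2 were higher, Zmynd10 and Cfap126, and 0 were lower, against 0.317% higher and 0.0493% lower among all tested genes. The median LFC was 0.08 against -0.01 over all tested genes. An unadjusted p under 0.05 was found for 12 of the 52, against 7.54% of all tested genes. Odf2, an outer dense fibre protein, had 4869, 4816 and 4659.98 normalized counts in Prm2-/- and 3684, 3193 and 2767 in Prm2+/- (LFC 0.58, limma, adjusted p = 0.219), and Akap3, a fibrous sheath protein, had an LFC of 1.04 (limma, adjusted p = 0.121). For both, the genotypes did not overlap, and DESeq2 called both while limma and edgeR called neither.

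Of 16 tested regulators of spermatid transcription, Trim24 was lower (1 gene, against 0.0493% of all tested genes) and 0 were higher, with a median LFC of -0.03. Crem, the activator of postmeiotic genes, had 504, 568 and 928 normalized counts in Prm2-/- and 218, 260.3 and 188 in Prm2+/-. The genotypes did not overlap, and the LFC of 1.54 (SE 0.25) missed the threshold in limma (adjusted p = 0.162) but not in DESeq2. Crem had 238, 1284 and 123 in Prm2+/+.

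Among 23 tested genes for storage and translation of spermatid mRNA, 0 were called by limma, edgeR or DESeq2, and the median LFC was -0.01. Of the 23, 2 had an unadjusted p under 0.05, against 7.54% of all tested genes. Ybx2, which binds stored protamine mRNA, had 4937, 5230.0 and 6164 normalized counts in Prm2-/- and 4274, 41.1 and 37.1 in Prm2+/-. Replicate 1 of Prm2+/- was thus near the Prm2-/- level and the other Prm2+/- libraries far below it (LFC 4.83, SE 1.84, limma, adjusted p = 0.641). Prm2+/+ had 37.1, 49.3 and 24.3. Tarbp2, another protein tied to protamine mRNA translation, had an LFC of -0.01 (95% interval -0.23 to 0.21). It had 354, 335 and 376 normalized counts in Prm2-/- and 329, 363 and 379 in Prm2+/-. The Prm2+/+ libraries lay far below both, with 32.3, 4.29 and 16.6.

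Histone removal and variant histone genes were represented by 17 tested members, with 0 called by limma, edgeR or DESeq2 and a median LFC of 0.03. Of the 17, 3 had an unadjusted p under 0.05, against 7.54% of all tested genes. Hspa2, a chaperone of transition proteins, had 3601, 3600.4 and 3279.8 normalized counts in Prm2-/- and 127, 78.6 and 3210.2 in Prm2+/-. The third of these Prm2+/- libraries stood at the Prm2-/- level (LFC 3.45, limma, adjusted p = 0.641). Hdac1, a histone deacetylase, had an LFC of -0.20 (95% interval -0.36 to -0.04).

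Of 31 tested scavengers of reactive oxygen species, 0 were called by limma or edgeR and 3 by DESeq2 (Gpx1, Gpx6 and Txnrd1). An unadjusted p under 0.05 was found for 4 of the 31, against 7.54% of all tested genes. Sod1, cytosolic superoxide dismutase, had 3197, 3045 and 3524 normalized counts in Prm2-/- and 3116, 3052 and 3252 in Prm2+/- (LFC 0.05, 95% interval -0.11 to 0.21). Prdx5, a peroxiredoxin, had 491, 442 and 519.5 against 420.2, 401 and 483 (LFC 0.16, 95% interval -0.10 to 0.41). Txnrd1, a thioredoxin reductase, had 113, 111 and 127 against 63.3, 35.6 and 28.3, without overlap (LFC 1.52, limma, adjusted p = 0.283). Its Prm2+/+ libraries had 36.1, 128 and 34.3. Other genes of the table overlap Txnrd1, and its summed locus had an LFC of 0.06 (limma, adjusted p = 0.817). Gpx6, a glutathione peroxidase, had an LFC of 0.75 (limma, adjusted p = 0.383).

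In the other 5 function lists limma, edgeR and DESeq2 called 0 genes. The 29 tested genes of the acrosome and of sperm-egg fusion had a median LFC of -0.02. Of the 29, 2 had an unadjusted p under 0.05, against 7.54% of all tested genes. An interval inside -0.5 to 0.5 was found for 20 of them, against 34.5% of all tested genes. Acr, the acrosomal protease acrosin, had an LFC of -0.03 (95% interval -0.42 to 0.35). The 18 tested genes of sperm glycolysis had a median LFC of -0.02, with 6 at an unadjusted p under 0.05, against 7.54% of all tested genes. Pgam2, phosphoglycerate mutase, had the smallest p among the 18 (LFC 0.29, limma, adjusted p = 0.501). Sord, which makes fructose from sorbitol, had an LFC of -0.08 (95% interval -0.22 to 0.06).

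The 23 tested genes of DNA damage response and apoptosis had a median LFC of -0.01. Of the 23, 1 gene had an unadjusted p under 0.05, against 7.54% of all tested genes. That gene was Bbc3, a promoter of apoptosis, with 19.9, 22.3 and 32.7 normalized counts in Prm2-/- and 0, 16.4 and 0 in Prm2+/- (limma, adjusted p = 0.641). Heat shock and unfolded protein genes, 18 of them tested, had a median LFC of -0.01. Of the 18, 1 gene, Xbp1, had an unadjusted p under 0.05, against 7.54% of all tested genes. The 8 tested immediate early genes had a median LFC of -0.21 and 0 at an unadjusted p under 0.05, against 7.54% of all tested genes.

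**Figure D5:**
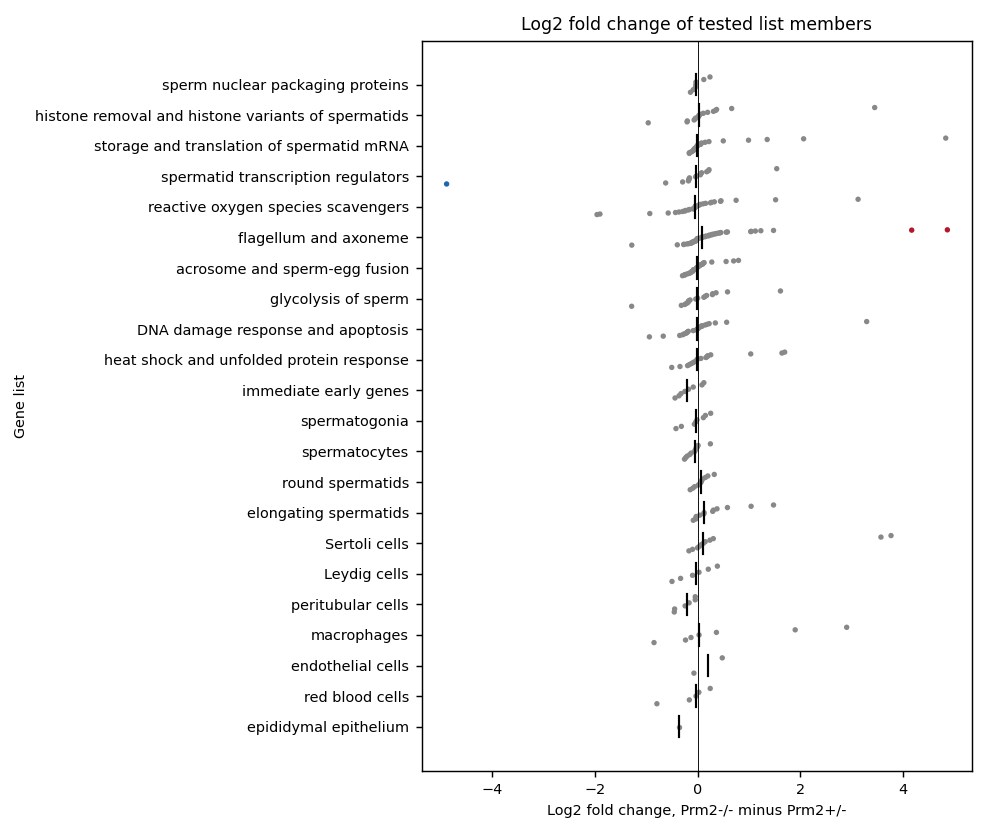
LFC (Prm2-/- minus Prm2+/-) of the tested members of the 11 function lists and 11 cell type lists, with each point 1 gene, called genes in red (higher) or blue (lower), and a black bar at the median of each list. The medians lie between -0.37 and 0.21, and the 3 called members are Zmynd10, Cfap126 and Trim24.

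No cell type marker was called by limma. Of 81 tested markers in 11 lists, 0 were called by limma or edgeR, 2 by DESeq2 (Odf2 and Amhr2), and 7 (8.64%) had an unadjusted p under 0.05, against 7.54% of all tested genes. The summed level of the 13 markers of elongating spermatids was 230738 to 241512 normalized counts in Prm2-/- and 229730 to 240875 in Prm2+/-. For the 11 markers of round spermatids in the table it was 15319 to 16273 against 14887 to 15784. Both ranges overlapped. A sum is weighted to the most abundant markers, so it says little about the others. Of the 13 elongating spermatid markers, 9 had a positive LFC. Their LFC ran from -0.08 to 1.48, with a median of 0.13 against -0.01 over all tested genes. Of the 11 round spermatid markers, 8 had a positive LFC. Their LFC ran from -0.14 to 0.33, with a median of 0.07. The 12 spermatocyte markers in the table summed to 8603 to 8809 in Prm2-/- and 8950.2 to 9206 in Prm2+/-, and the 12 spermatogonial markers to 698 to 768 and 785 to 847, which did not overlap. In Prm2+/+ the spermatocyte markers summed to 8317 to 9885, a range that holds both others. The spermatogonial markers summed to 641 to 778 there, which overlapped Prm2-/- only.

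Sertoli cell markers were the somatic list with the most small p-values. Of these markers, 4 of 11 tested had an unadjusted p under 0.05, against 7.54% of all tested genes, and the median LFC was 0.12. Their sum was 3599.8 to 4459 normalized counts in Prm2-/- and 3229 to 3419.7 in Prm2+/-, with no overlap. In Prm2+/+ it was 3310 to 4571, which overlapped both. Fshr was listed at 0 in all libraries. Amhr2 had 539, 544 and 11.6 in Prm2-/- and 10.9, 12.8 and 7.95 in Prm2+/-, so that it was high in 2 of the 3 Prm2-/- libraries, while Clu had an LFC of 0.24 (95% interval 0.06 to 0.42). Vim, a gene these cells also express, was higher in all 3 Prm2-/- libraries, and the part of Sertoli cells in that result was not tested.

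For the other somatic lists the ranges of the 2 genotypes overlapped. The sums were 2077 to 2359 normalized counts in Prm2-/- and 2102 to 2649.6 in Prm2+/- for Leydig cells, 1012 to 1196 and 1145 to 1195 for peritubular cells, and 343 to 375 and 322 to 377 for macrophages. Endothelial markers summed to 69.0 to 95.1 and 77.6 to 90.0, and those of red blood cells to 804 to 1264 and 911 to 1123. Epididymal markers summed to 20.8 to 32.7 and 32.6 to 44.8, and Lcn5, Lcn8, Lcn9 and Rnase9 were listed at 0 in every library. Over the 6 lists of somatic, blood and epididymal markers other than Sertoli cells, 1 gene, Hsd3b6 of Leydig cells, had an unadjusted p under 0.05 (LFC -0.50, limma, adjusted p = 0.641). Among all tested genes the share at such a p was 7.54%.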

How the data were processed

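The deposited table of the whole series held, for each library, normalized counts as a signal. The authors mapped reads to GRCm38 with HISAT2, assembled and counted with StringTie, removed pseudogenes by biotype and used DESeq2, and the deposited values are counts divided by 1 size factor per library. In each library every value (100%) was, within 1e-06, a whole number of steps of 1 size, from which counts were recovered. The StringTie script derives its counts from coverage and read length, so they may differ in scale from sequenced reads. For Prm2+/- replicate 1 that step is near 1, which makes this a weaker sign. All 9 columns were matched to a sample and 0 were not. Totals of the 9 libraries were 3629929 to 4490411.

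Genes with a mean of at least 10 normalized counts over the 6 libraries were tested with limma (lmFit, eBayes with trend) on log2(value + 1), genotype being the only term. Since values were low in some genes, this scale understates their change. A call needed both an LFC beyond 0.5 and a p-value, adjusted after Benjamini and Hochberg, under 0.05, as in the study. P-values measure the spread between the 3 males of a genotype. edgeR and DESeq2 on recovered counts, other scalings, pseudocounts of 0.5 and 5, filters, a replicate block, overlapping genes and leaving out each library were alternatives. Positions came from GENCODE M21 (GRCm38), to which 38520 of 38685 entries (99.6%) were matched.

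The genes named were Prm2 and 9 genes of the study, the 20 largest rises and up to 15 largest falls among called genes whose genotypes did not overlap, the 5 most abundant called genes, and of each list its called members and the 2 smallest p-values. Only part of those from the lists is given in the text. Chosen after their values were seen were Mea1, Caml, Vim, Otud4, Ccdc40, Rpl41, Bcas3, Eif2b5, Fam20b, Ccnd3, Fkbp8 with the genes that overlap them, Hspa2, Akap3, Gpx1 and Amhr2. Other packaging genes and markers at 0 were named to account for their lists. The comparison, the lists and the rules were chosen with earlier results of these data known. Statistics used DESeq2 1.42.0, edgeR 4.0.16 and limma 3.58.1 under R 4.3.3, and tables and plots used matplotlib 3.10.9 and pandas 2.3.3 under Python 3.11.15.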

Additional observations from a re-analysis of the deposited data

How the results depend on the processing

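The LFC of Prm2 stayed between 0.15 and 0.30 under all alternatives and was never called. With all 9 libraries in the fit, 21 genes were higher and 4 lower, all 25 of them among the 52. With any gene above 0 in 1 library tested, 58 were higher and 13 lower. With at least 10 normalized counts in each library, 30 were higher and 1 lower, all 31 among the 52. That filter drops genes below 10 in any library, among them each called gene listed at 0 in 1 genotype. DESeq2 called 128 higher and 27 lower in 6 libraries, and 88 and 23 in 9. Leaving out overlapping genes gave 28 and 4. The counts with 1 library left out ran from 38 to 90 higher and 11 to 20 lower. The higher genes exceeded 1.5 times the count of 45 without Prm2+/- replicate 1 (90), 2 (76) and 3 (68), and the lower genes exceeded 1.5 times their 7 without any 1 library: 18, 15 and 20 without Prm2-/- replicates 1, 2 and 3, and 15, 12 and 11 without those of Prm2+/-. The cause was not tested. TMM factors and library totals each left 45 and 7, the same 52 genes.

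Replicate numbers are shared by both genotypes, but same-numbered libraries did not deviate together (correlations over genes 0.0045, -0.0046 and -0.0105). With 3 libraries of each genotype, such correlations cannot settle whether the numbers pair the males. With the replicate block, 12 genes were higher and 3 lower, all 15 among the 52.

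The sign turned in uncalled genes of small LFC: Tarbp2 in edgeR (0.0015), Prdx5 with overlapping genes summed (-0.012), and with 1 library left out Tarbp2 (-0.064 to 0.037), Kdr (-0.36 to 0.085), Acr (-0.16 to 0.092) and Sod1 (-0.0086 to 0.097). With overlapping genes summed it also turned for Nt5m (-0.038) and Gm19918 (0.062). The part of sequencing depth in the values listed at 0 was not tested.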
